A study of Saccharomyces cerevisiae with 4 samples.

Results

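Mediator is the multi-subunit coactivator that joins DNA-bound transcription factors to RNA polymerase II. The 10 Mediator genes described here were taken by name (symbol or synonym) from a tag-array screen of budding yeast deletion strains: MED6, SRB2 and SRB5 of the head module, MED1 of the middle, MED2, PGD1, GAL11 and SIN4 of the tail, and SSN3 and SSN8 of the kinase module. They are 10 of 5288 strains with a value on every array, and 10 of the 25 subunits of yeast Mediator, all of which were measured. MED6 is essential for growth and the other 9 listed genes are not. The list was drawn up with results of these arrays known, and MED6 was on it because its ratio differed between the plasmids, so the plasmid differences below are a description of the members and carry no test.

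The head and middle modules form the core that contacts RNA polymerase II, the tail receives signals from activators such as Gcn4, and the kinase module, built around a cyclin and its cyclin-dependent kinase, binds the core reversibly. A large share of the head and middle subunits is needed for life in yeast, while most tail subunits and the whole kinase module can be deleted. No living haploid is expected from a spore that lacks an essential subunit, and which cells gave the tag signal of such strains was not tested.

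The screen looked for deletions that combine badly with a defect in CDC102, a synonym of PSF2, which encodes a subunit of the essential GINS replication complex and lies on chromosome X. Per the labels, all pools started from 5896 heterozygous, haploid-convertible diploid deletion strains. The pool was transformed with the cdc102D::natMX cassette, which replaces CDC102, and afterwards with cdc102-1 or the wild-type gene on a centromeric URA3 plasmid. After sporulation the cells spent 2 days at 28 or 30 degree on minimal medium without uracil, either with nourseothricin (Nat), where only cells with the natMX disruption grow, or without it, where single and double mutants grow together. Tags from the plates without Nat were labelled with Cy5 and those from the Nat plates with Cy3, with 1 array per plasmid and temperature, 4 in all, and no replicate. The text given for the wild-type samples calls their sporulated pool cdc102-1 in 1 place, and here the sample titles decided the group.

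Each deposited value is the log2 ratio of both dyes at 1 spot. The direction of the ratio is not stated. Cy5 is the first channel in the labels, which makes Cy5 over Cy3 likely, and a higher value would then mean relatively less tag from the double-mutant plates. Ratios are therefore given only as higher or lower, averaged over the spots of a strain and centred so that 0 is the median strain of an array. The SD over strains was between 0.65 and 1.03, and first and second tags correlated over strains with r between 0.296 and 0.484, a description over strains that share 1 hybridisation. The PSF2 strain itself, whose locus is the one disrupted by natMX, had ratios of -0.14 and 0.04 with cdc102-1 (28 and 30 degree) and 0.36 and 0.31 with CDC102. The 42 strains within 50 kb of PSF2 had medians between -0.08 and -0.03 on the 4 arrays, so this neighbourhood gave no help with the direction of the ratio. None of the 25 Mediator genes (0) lies on chromosome X.

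MED6, an essential head subunit at the junction with the middle module, had ratios of -1.51 at 28 degree and -1.89 at 30 degree with cdc102-1, against -0.35 and 0.88 with CDC102. The 2 cdc102-1 arrays were both below the 2 CDC102 arrays, and only the CDC102 array at 30 degree was above the median strain. The plasmid difference (cdc102-1 minus CDC102) was -1.16 at 28 degree and -2.77 at 30 degree, with a mean of -1.97 ± 0.49 (SE of the additive fit, 4 arrays), which placed MED6 at rank 21 from the lowest of 5288 strains. MED6 had 1 spot for each tag. The first tag went from deposited ratios of 1.28 and 1.91 with CDC102 (28 and 30 degree) to 0.45 and 0.21 with cdc102-1, and the second tag from 0.38 and 1.35 to 0.21 and 0.24. On the centred log2 scale these are differences of -1.49 and -3.12 for the first tag and -0.84 and -2.42 for the second. The tags thus gave the same sign at both temperatures and the larger size at 30 degree. Of 4844 strains with both tags on all arrays, 672 (13.9%) also had a lower ratio with cdc102-1 in both tags at both temperatures, so agreement in sign alone is common.

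**Figure D1:**
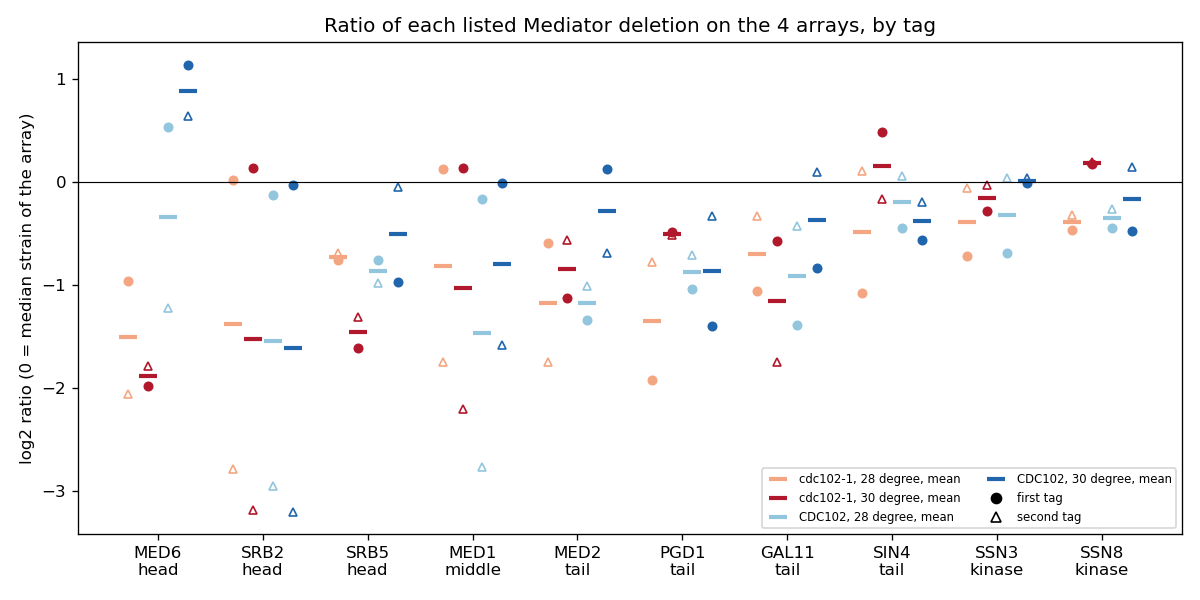
Centred log2 ratio (vertical axis, 0 is the median strain of the array) of the 10 listed Mediator deletions, with a bar for the mean over all spots, a filled circle for the first tag and an open triangle for the second, in the 4 colours of the arrays. MED6 runs from -1.89 to 0.88, while the SRB2 bars lie between -1.62 and -1.39 with their tags far apart.

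The other listed subunits did not share the size of the MED6 difference. SRB2 (Med20) and SRB5 (Med18), which pair with each other in the movable part of the head, had mean plasmid differences of 0.12 ± 0.20 and -0.41 ± 0.36. The tail subunits MED2, PGD1 (Med3) and GAL11 (Med15), which form the part of the tail that activators bind, stood at -0.28 ± 0.25, -0.06 ± 0.30 and -0.29 ± 0.34, and SIN4 (Med16), which links the tail to the core, at 0.12 ± 0.30. MED1 of the middle stood at 0.21 ± 0.32. The kinase SSN3 (Cdk8) and its cyclin SSN8 stood at -0.12 ± 0.20 and 0.16 ± 0.23. These 9 means lay between -0.41 and 0.21.

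MED6 differed from the median of these 9 members by -1.17 at 28 degree and -2.60 at 30 degree. With the first tag alone the gap was -1.49 and -3.28, and with the second -0.89 and -2.36. Over all strains, 2.84% had a ratio lower by at least 1 with cdc102-1 at 28 degree and 7.92% at 30 degree, and 0.681% at both. MED6 was the 1 listed member past that size, at each temperature and in the lower direction. The shares higher by at least 1 were 3.93% and 7.77%, with 0 listed members. SRB5 came closest at 30 degree, with -0.95, and without centring it passed the size too. In single tags the picture was less even. The second tag of MED6 did not reach the size at 28 degree (-0.84), while at 30 degree the first tag of MED2 (-1.25) and the second tags of SRB5 (-1.27) and GAL11 (-1.84) did, with their other tags at 0.12, -0.64 and 0.26. In the higher direction the second tag of MED1 at 28 degree (1.02) and the first tag of SIN4 at 30 degree (1.05) passed the size, with their other tags at 0.28 and 0.02. Across the series, limma's plasmid term gave 0 strains (0.0%) at an adjusted p under 0.05, the smallest being 0.553, and 462 strains (8.74%) had an unadjusted p under 0.05, 179 of them (3.39%) lower with cdc102-1.

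The sign of the plasmid difference was not stable between temperatures for most of the list. It was opposite at 28 and 30 degree for 7 of the 10 members (SRB5, MED1, MED2, PGD1, GAL11, SIN4 and SSN8), where 42.0% of all strains were opposite. Counting each tag at each temperature, 3 members kept one sign throughout (MED6 and SSN3 lower, SRB2 higher), where 30.2% of strains with both tags did so. The SRB2 differences were small, between 0.02 and 0.17, and those of SSN3 lay between -0.27 and -0.03. In the second tag of SRB2 they were smaller than the SD over the spots of that tag (0.35 to 0.62). MED6 was the 1 member of these 3 with large values.

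**Figure D2:**
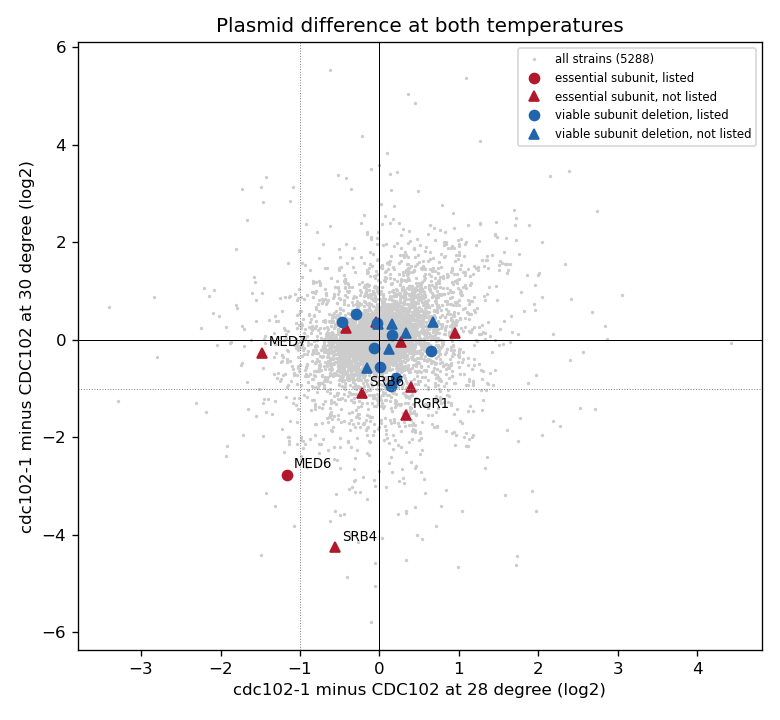
Plasmid difference (cdc102-1 minus CDC102, log2) at 28 degree (horizontal axis) and at 30 degree (vertical axis) for 5288 strains (grey), with essential Mediator subunits in red and viable subunit deletions in blue, circles for listed genes and triangles for the others. MED6 (-1.16 and -2.77) and SRB4 (-0.56 and -4.26) lie apart from the remaining subunits, and dotted lines mark -1.

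Because the list holds 1 of the 10 essential subunits, the other 9 were set beside MED6. SRB4 (Med17), the central scaffold of the head, had a plasmid difference of -0.56 at 28 degree and -4.26 at 30 degree, with a mean of -2.41 ± 1.04 (SE), at rank 6 from the lowest of all strains. Its ratio with cdc102-1 at 30 degree, -4.79, rested on 1 spot with a deposited ratio of 0.03, where the rounding of ratios to 0.01 is coarse, since the second tag had no value on that array. RGR1 (Med14), the scaffold that runs through the complex, had 0.34 at 28 degree and -1.53 at 30 degree. MED7 of the middle had -1.48 and -0.26, with no value for 1 tag on the 30 degree cdc102-1 array. SRB6 (Med22) of the head had -0.22 and -1.09, but the same array lacked its second tag, and the tags of SRB6 averaged -2.09 and -0.11. Within the first tag its difference at 30 degree was -0.39. The remaining essential subunits MED8, MED11, MED4, NUT2 (Med10) and SRB7 (Med21) had mean differences between -0.29 and 0.55.

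At 30 degree 4 of the 10 essential subunits were lower by at least 1 with cdc102-1 (MED6, SRB4, RGR1 and, over unequal sets of tags, SRB6), against 0 of the 15 viable deletions and 7.92% of all strains. At 28 degree it was 2 essential subunits, MED6 and MED7, against 0 viable ones and 2.84% of all strains. Other essential strains moved by that much too. Of 8 essential RNA polymerase II subunits, 2 were lower and 1 higher at 30 degree, and 0 either way at 28 degree. Of 16 essential general transcription factors, 2 were lower and 3 higher at 30 degree, and 2 lower and 2 higher at 28 degree. The median mean difference was -0.29 over the 9 essential subunits without MED6, 0.12 over the 15 viable deletions and 0.01 over all strains. The viable deletions lay within a mean difference of -0.41 to 0.52. With 1 array in each combination these counts have no test. The sets also differed in spots: all 10 essential subunits had 1 spot per tag. Of the viable deletions, SRB2, SRB5, GAL11, SIN4, SSN8, ROX3, CSE2, NUT1 and SRB8 had 6. The subunits with a missing spot (SRB4, SRB6 and MED7) were all essential. Whether the number of spots bears on these counts was not tested. MED6 was the 1 subunit past the size at both temperatures.

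The level of the ratio, averaged over the 4 arrays, was low for the listed head, middle and most tail deletions and near the median strain for the kinase module. All 10 listed deletions had a mean ratio below the median strain, and 6 of them (SRB2, SRB5, MED1, MED2, PGD1 and GAL11) were below it on all 4 arrays, as were 27.6% of all strains. The list was drawn up with these values known, so the means of its members are a description and carry no test. SRB2 and MED1 had means more than 1 below the median strain, as did 12.9% of all strains. In limma's test of the mean against the median strain, 1067 of 5288 strains (20.2%) passed an adjusted p of 0.05, 830 (15.7%) below and 237 (4.48%) above; without centring the split was 1166 below of 1266. All arrays have the same dye orientation, so a dye bias of a tag is part of this level and cannot be told apart from it.

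In the head, SRB2 had ratios of -1.39 and -1.53 with cdc102-1 (28 and 30 degree) and -1.54 and -1.62 with CDC102, a mean of -1.52 ± 0.10 (SE of the fit, 4 arrays). Both CDC102 arrays were slightly below both cdc102-1 arrays, and all 4 were far below the median strain. Its partner SRB5 had -0.73, -1.46, -0.87 and -0.51 in the same order, with a mean of -0.89 ± 0.18. SRB5 was lowest on the cdc102-1 array at 30 degree. MED6 had a mean of -0.71 ± 0.24 and the widest spread of the list.

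In the middle, MED1 had -0.82, -1.04, -1.47 and -0.80, with a mean of -1.03 ± 0.16. The lowest of its arrays was CDC102 at 28 degree, and the plasmid groups overlapped. In the tail, PGD1 had -1.35, -0.50, -0.88 and -0.87, with a mean of -0.90 ± 0.15. Its extremes were both cdc102-1 arrays, so the CDC102 values lay between them. MED2 had -1.17, -0.85, -1.18 and -0.28, with a mean of -0.87 ± 0.13 and was nearest the median on the CDC102 array at 30 degree. GAL11 had -0.70, -1.16, -0.91 and -0.37, with a mean of -0.78 ± 0.17. SIN4 stood apart from the other tail genes at -0.49, 0.16, -0.20 and -0.38, with a mean of -0.23 ± 0.15.

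The kinase module lay close to the median strain. SSN3 had -0.39, -0.16, -0.33 and 0.01, with a mean of -0.22 ± 0.10, and SSN8 had -0.39, 0.18, -0.36 and -0.17, with a mean of -0.18 ± 0.11. The enzyme and its cyclin had nearly the same ratios on both 28 degree arrays and differed in sign on both 30 degree arrays. In the order of mean ratios from SRB2 upward, MED1 was next with a gap of 0.49 (SE of the difference 0.19). This SE leaves out the difference between tags. The first tags of SRB2 and MED1 averaged -0.003 and 0.02 and the second -3.03 and -2.08, so the gap rests on the second tags. From MED1 through PGD1, SRB5, MED2 and GAL11 to MED6 every step was between 0.01 and 0.13 and smaller than its SE. The step from MED6 to SIN4 was 0.49 with an SE of 0.29, and SIN4, SSN3 and SSN8 differed by 0.01 and 0.03.

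**Figure D3:**
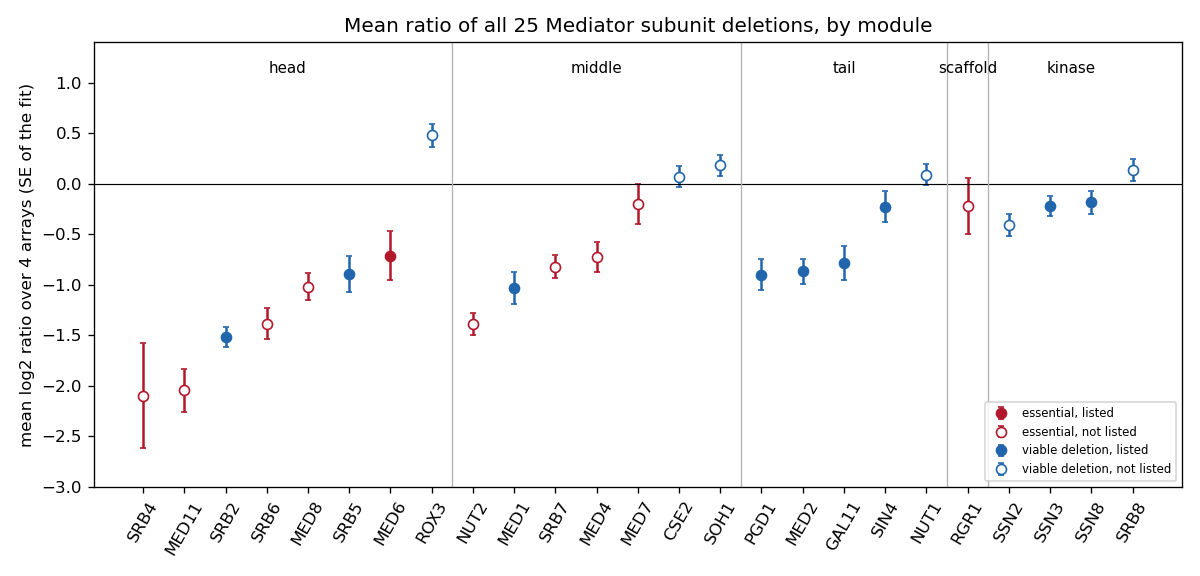
Mean log2 ratio over the 4 arrays with the SE of the fit (vertical axis) for all 25 Mediator subunit deletions, grouped by module, with essential subunits in red, viable deletions in blue and filled symbols for the listed genes. The 10 essential subunits lie between -2.10 and -0.20, and the 6 viable deletions not on the list between -0.41 and 0.48.

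Over the whole complex, the 10 essential subunits had a median mean ratio of -0.92 and the 15 viable deletions one of -0.23, a difference given without a test. The 9 essential subunits not on the list had a median of -1.02, and 5 of them passed the test below the median strain, as did 15.7% of all strains: MED11 (-2.04 ± 0.21), NUT2 (-1.39 ± 0.11), SRB6 (-1.38 ± 0.16), MED8 (-1.02 ± 0.14) and SRB7 (-0.82 ± 0.11). SRB6 passed in 1 of 4 fits without an array, and SRB7 passed with its second tag alone and not with its first (limma adjusted p 0.036 and 0.253). SRB4 (-2.10 ± 0.52), MED4 (-0.72 ± 0.15), RGR1 (-0.22 ± 0.28) and MED7 (-0.20 ± 0.19) did not. The 6 viable deletions not on the list had a median of 0.11. The list was drawn up with these values known, and whether its choice bears on this median was not tested. In limma 0 of these 6 passed in either direction. At an unadjusted p under 0.05, 1 was below and 1 above, where 26.1% of all strains were below and 15.2% above. SSN2 passed below the median without centring (-0.62, limma adjusted p 0.042), and ROX3 passed above it with quantile normalization (0.61, limma adjusted p 0.040). The 6 were ROX3 (Med19) of the head at 0.48 ± 0.12, CSE2 (Med9) and SOH1 (Med31) of the middle at 0.07 ± 0.11 and 0.18 ± 0.10, NUT1 (Med5) of the tail at 0.09 ± 0.10, and SSN2 (Med13) and SRB8 (Med12) of the kinase module at -0.41 ± 0.11 and 0.14 ± 0.11. All 4 kinase module genes stayed within 0.41 of the median strain in their means.

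The low levels of SRB2 and MED1 came from 1 tag each. For SRB2, the first tag averaged -0.003 over the 4 arrays and the second -3.03. The second tag lay between -3.20 and -2.79 on the 4 arrays and the first between -0.13 and 0.13, so the ranges were far apart on every array. Only 1.18% of strains with both tags had as large a difference between tags. For MED1 the first tag averaged 0.02 and the second -2.08, with a second-tag range of -2.77 to -1.58, and 2.44% of strains differed as much. Why the tags of these strains differed was not tested.

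Averaged over the 4 arrays, the tags of PGD1, GAL11, MED2 and SRB5 were all below the median strain. PGD1 averaged -1.22 and -0.59 (first and second tag), GAL11 -0.97 and -0.60, and SRB5 of the head -1.03 and -0.76. MED2 averaged -0.73 in the first tag and was lower still in the second. On single arrays PGD1 and SRB5 had both tags below it throughout, while on CDC102 at 30 degree MED2 (0.13 and -0.69) and GAL11 (-0.83 and 0.09) had tags of opposite sign. The tags of SIN4 had opposite signs on every array but CDC102 at 30 degree. Leaving out single arrays kept the mean ratios of SRB2, SRB5, MED1, MED2, PGD1 and GAL11 between -1.56 and -0.66.

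**Figure D4:**
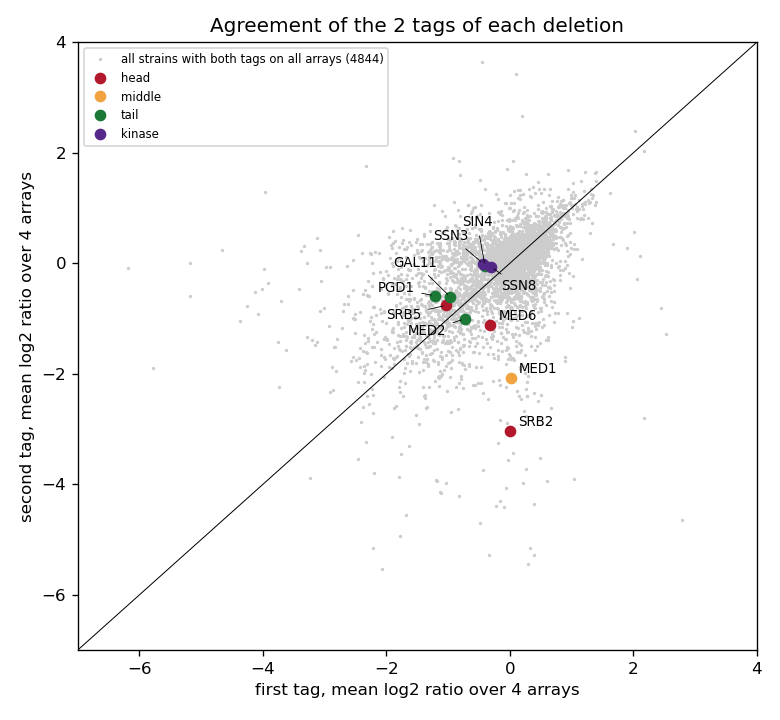
Mean log2 ratio over the 4 arrays for the first tag (horizontal axis) and the second tag (vertical axis) of 4844 strains (grey) and of the 10 listed Mediator deletions, coloured by module, with the line of equal values. SRB2 (-0.003 and -3.03) and MED1 (0.02 and -2.08) lie far below the line, and the kinase module genes lie near 0.

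The array carries 6 spots per tag for 5 of the members (SRB2, SRB5, GAL11, SIN4 and SSN8), which shows how well a tag is read on 1 array. The median SD over such repeat spots, across all strains that had them, was between 0.063 and 0.092. SSN8 was read closely, with an SD of 0.031 to 0.115 in either tag. Its first tag stood at -0.46, 0.17, -0.45 and -0.48 and its second at -0.32, 0.19, -0.27 and 0.14 (cdc102-1 at 28 and 30 degree, then CDC102). The tags agreed on the first 3 of these arrays to within 0.2 and parted on CDC102 at 30 degree by more than the spread of their spots.

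SIN4 had a first tag with an SD of only 0.033 to 0.047, yet it moved from -1.08 to 0.49 between 28 and 30 degree with cdc102-1, while the second tag (SD 0.36 to 0.56) went from 0.10 to -0.17. Close repeat spots thus did not make the tags of SIN4 agree. GAL11 had wider spots in both tags, with SDs of 0.15 to 0.66 and 0.39 to 0.63. Its low value on the cdc102-1 array at 30 degree came from the second tag, at -1.75 against -0.57 for the first. SRB5 was low there in both tags, at -1.61 and -1.31, with an SD over spots of 0.76 for the first.

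**Figure D5:**
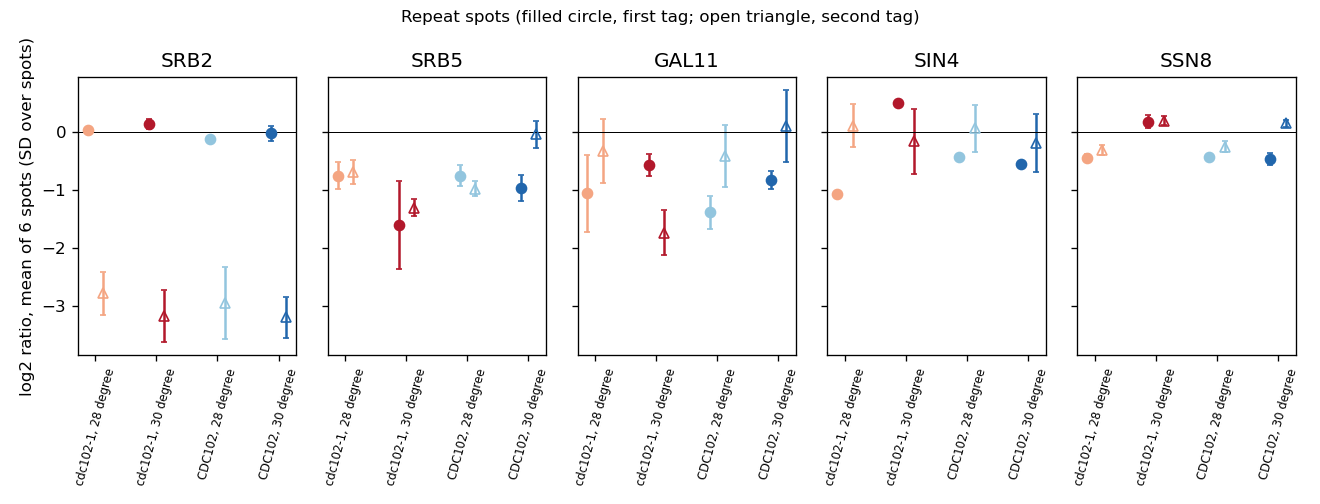
Mean and SD over 6 repeat spots (centred log2 ratio, vertical axis) for each tag on each array of the 5 members with repeat spots, filled circles for the first tag and open triangles for the second. The SRB2 tags are about 3 apart on every array, and the first tag of SIN4 runs from -1.08 to 0.49 with error bars smaller than its symbols.

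Temperature made no difference that passed the test. In limma's temperature term 0 of 5288 strains (0.0%) passed, with a smallest adjusted p of 0.73 and 295 (5.58%) at an unadjusted p under 0.05, none of them a listed member. MED2 had the largest mean difference of the list (30 minus 28 degree), at 0.61 ± 0.25 (SE), with 0.33 with cdc102-1 and 0.90 with CDC102. PGD1 had 0.43 ± 0.30, MED6 0.43 ± 0.49 and SSN8 0.38 ± 0.23. SRB5 and SRB2 were the 2 members below 0, at -0.19 ± 0.36 and -0.11 ± 0.20. MED6 moved in opposite directions, with -0.38 with cdc102-1 and 1.23 with CDC102, and was the 1 listed member past a size of 1, where 2.97% of all strains were higher and 4.82% lower by that much with CDC102, and 3.84% and 8.42% with cdc102-1. Of the other 15 subunits SRB8, of the kinase module, had 0.98 ± 0.22, which did not pass either. Its first tag gave 1.33 with cdc102-1 and 2.32 with CDC102, and its second tag 0.33 and -0.05.

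Other genes that work with Mediator at the promoter were set beside it, in a pair of lists: RNA polymerase II with its elongation factor DST1, and the general transcription factors. For the plasmid term 0 of 11 and 0 of 17 measured strains passed in limma (0 and 2 at an unadjusted p under 0.05), with medians of 0.10 and -0.16 against 0.01 over all strains. For the mean ratio 1 of 11 polymerase strains passed below the median (RPB4, -0.96 ± 0.10) and 1 above (DST1, 0.58 ± 0.11), and 6 of 17 general factors passed below and 0 above, beside 15.7% of all strains below and 4.48% above. Their medians were -0.09 and -0.78, beside -0.72 over all 25 Mediator subunits and 0.00 over all strains. RPB9, a viable polymerase subunit, had -3.06 on the cdc102-1 array at 28 degree and between -1.05 and -0.95 on the other 3, and TAF14, shared by several complexes, had a mean of -0.37 ± 0.10. The essential polymerase subunits lay nearer the median strain (median -0.07 of 8) than the 10 essential Mediator subunits (median -0.92), a difference given without a test. The essential general transcription factors (median -0.80 of 16) lay close to the Mediator value, so a low level of essential strains was not particular to Mediator.

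The strains outside these lists nearest to MED6 over the 4 arrays, by Euclidean distance, were MTR3, an exosome subunit (0.837), COG4 of the Golgi (0.880), SAH1, which breaks down S-adenosylhomocysteine (0.902), ISA1 of mitochondrial iron-sulfur assembly (0.944) and SSC1, the mitochondrial Hsp70 (0.952). Their plasmid differences lay between -1.68 and -1.04. The strains nearest to SRB2 were closer, from YLR177W (0.140), CDC39 of the Ccr4-Not complex (0.238) and PAC11 of dynein (0.251) to RFA3 of replication protein A (0.319) and FRQ1 (0.325). For SRB2 the likeness is to an average of tags at -0.003 and -3.03, a value that neither tag had. With 4 arrays such likeness describes these values only.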

How the data were processed

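The deposited values are log2 ratios of both dyes per spot. Per the labels, tags were amplified from genomic DNA, hybridised to a Hopkins tag array, and scanned and analysed with GenePix. Numerator, background correction and normalization: not given in the sources used here. All ratios were multiples of 0.01 (within 0.1%), and a stand-in ratio of 1000000 in 10 spots was left out. Signal over background is unknown. The number of arrays limits the precision.

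Genes came from the platform annotation: 18794 of 22575 spots named 1 gene and 3781 none. The 5325 genes were matched to RefSeq R64 (5321 matched), which gave synonyms and chromosomes. Both tags of a gene lie 10971 spots apart. The files do not say which of them is the uptag, hence first and second tag. Spots were averaged per strain, and each array was centred on the median of 5288 strains (-0.19, -0.27, -0.17 and -0.20 removed). The medians of the deposited columns were -0.14, -0.17, -0.14 and -0.15.

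limma 3.58.1 (R 4.3.3) was fitted over all strains with plasmid and temperature as additive terms and Benjamini-Hochberg adjustment at 0.05. The fit leaves 1 residual degree of freedom and 2.30 from the prior. On simulated data only the size of its plasmid estimates was checked. How often a real difference would pass is not given here. The labels mention no independent cultures. With 1 array per combination, the residual of the additive fit is the change in the plasmid difference between the temperatures. A real change of this kind and array-to-array noise, which may be technical, cannot be told apart in it. The SEs and p-values of this fit therefore rest on that residual and the prior, and on no spread between replicates. At a single temperature there is no test and a size of 1 (log2) was counted.

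The members and lists were chosen with earlier results of these data known. Named were the 10 members, PSF2, the other 15 subunits, RPB4, RPB9, DST1 and TAF14, and the 5 strains nearest to MED6 and to SRB2. Essential genes follow general knowledge of yeast. RPB2 and SUA7 lacked a value on at least 1 array, and no spot was matched to TFB5. Alternatives are in the closing section.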

Additional observations from a re-analysis of the deposited data

Results flagged for a closer look

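The plasmid difference of SSN8, the cyclin of the kinase module, was -0.04 at 28 degree and 0.35 at 30 degree, a gap of 0.38. The first and second tag stood at -0.02 and -0.05, then at 0.65 and 0.05. All but the 0.65 were no larger than the SD over SSN8 spots (0.031 to 0.115), so the value at 30 degree came from the first tag. Among the 7 listed members with opposite signs this gap was the smallest. Each temperature has 1 array per plasmid, so the difference between temperatures was not tested. Across all strains 42.0% had opposite signs at the 2 temperatures.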

How the results depend on the processing

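For the plasmid term 0 strains passed under 12 of the 13 alternatives; with only tag-agreeing strains (tags within 1 of each other on each array) 1 passed (GET2, limma adjusted p 0.036, named after its value was seen), and it is no Mediator gene. At an unadjusted p under 0.05 between 197 and 878 strains passed without 1 array. For temperature 0 passed under all 13 in limma, with 109 to 680 unadjusted. For the mean ratio 537 passed with the second tag only, and between 377 and 854 in fits without 1 array, which held no plasmid or temperature term: 377 without cdc102-1 at 28 degree, 386 without CDC102 at 28 degree and 606 without CDC102 at 30 degree. Strains past the size numbered 358 at 28 degree and 830 at 30 degree. At a size of 0.5 they were 1345 and 1890, at 1.5 they were 102 and 414, with the size reached in each tag 96 and 277 (MED6 among them at 30 degree and not at 28), and on tag-agreeing strains 96 and 194. MED6 minus the median of the other members was -1.91 over both temperatures, -2.46 with the first tag only, -1.17 at 28 degree and -2.60 at 30 degree. Without centring 6 of 25 subunits passed the size at 30 degree in place of 4, adding SRB5 and MED11. With quantile normalization 3 passed in either direction, and with the first or second tag alone 6 and 5. With the size reached in each tag 2 passed, and on tag-agreeing strains 1. At 28 degree 2 passed in the main setting, 3 with quantile normalization, and 4 and 3 with single tags. There 0 passed with the size reached in each tag or on tag-agreeing strains. The tag-agreeing strains did not include MED6, SRB4, RGR1, SRB6 or MED7, the subunits past the size in the main setting. SRB4, SRB6 and MED7 also lacked a tag value on 1 array and were left out of the count in each tag. Those counts therefore say nothing about the subunits left out. In 50 repeats of the members' mean ratio 0 changed sign. With the first tag only, however, SRB2 went from -1.52 to -0.03 and MED1 from -1.03 to -0.007. Among viable subunits not on the list SSN2 passed in 4 of 12 settings and ROX3 in 2 of 11. No paired analysis was possible because the labels give no replicate numbers to pair by, though the temperature term already sets the plasmids against each other within a temperature. The cause of these changes was not tested. Intensities were not used here, so signal over background is unknown.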
